A study of Mus musculus with 4 samples.

Results

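Oncostatin M, leukaemia inhibitory factor (LIF) and interleukin-6 (IL-6) belong to 1 family of cytokines, and 10 genes of that family's signalling were followed here in mononuclear cells of mouse skeletal muscle. The genes were taken by symbol, and all 10 were found among the 32285 genes of the count tables. They are the ligand genes Osm, Lif, Il6 and Clcf1, the receptor genes Osmr, Lifr, Il6ra, Il11ra1 and Il6st, and the feedback inhibitor gene Socs3. Single-cell RNA-seq (3' v3.1 kits of 10x Genomics, in which each captured transcript gives 1 tag near its 3' end, counted as a unique molecular identifier, UMI) had been run on thawed cells from quadriceps and diaphragm of wild-type (WT) and mdx5cv mice, all 14 weeks old. The mdx5cv line carries a mutation of the dystrophin gene and is a model of Duchenne muscular dystrophy. Each of the 4 combinations of genotype and muscle was 1 library. The labels do not say how many mice gave a library, nor from which strain the WT mice came. The values below therefore lack replicates, and p-values were not computed. Intervals are exact 95% intervals of the counts and cover counting error only.

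The cytokines of this family signal through shared receptor chains at the cell surface. The common chain gp130, encoded by Il6st, pairs with the oncostatin M receptor (Osmr) for oncostatin M and with the LIF receptor (Lifr) for LIF, while IL-6 and IL-11 first bind their own receptors, encoded by Il6ra and Il11ra1. Cardiotrophin-like cytokine (Clcf1) binds a receptor made of gp130, the LIF receptor and the CNTF receptor. The chains activate JAK kinases and the transcription factor STAT3, and STAT3 induces Socs3, whose product shuts the signal down again. In muscle the family is known for acting on muscle stem cells during repair and for its links to inflammation and fibrosis. Fibro/adipogenic progenitors (FAPs) are the mesenchymal cells that produce much of the matrix of muscle.

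Ligand genes and receptor genes lie in pairs in the mouse genome (GRCm38, GENCODE M21). Osm (chr11:4236420-4241026, + strand) and Lif (chr11:4257557-4272514, + strand) are 16.53 kb apart, and Osmr (chr15:6813577-6874969, - strand) and Lifr (chr15:7090614-7197489, + strand) are 215.644 kb apart, with 0 protein-coding genes between the members of either pair. Il6 is at chr5:30013114-30019981 (+ strand), Clcf1 at chr19:4214238-4223490 (+ strand), Il6ra at chr3:89864059-89913196 (- strand), Il6st at chr13:112464070-112510086 (+ strand) and Socs3 at chr11:117966079-117970047 (- strand). Il11ra1 (chr4:41699989-41769474, + strand) is the 1 member that overlaps another counted gene on its own strand, Galt. Of its 98-base windows in the last 500 bases, 12.4% also occur in the near-identical Il11ra2 copies, which had 0 UMIs in these cells, so Il11ra1 levels are uncertain to that extent.

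Il6, Lif and Socs3 had levels that differed between libraries beside differences in stress genes, as described below, and their start regions are shown for that reason. Sequences are from RefSeq (GRCm38.p6) and run 5' to 3' on the strand of the gene. Capitals mark matches, on either strand, to a motif: TGANTCA, bound by AP-1, or the 10-base motif of NF-kB, in Il6 and Lif, and TTCNNNGAA, bound by STAT factors, in Socs3. The Il6 stretch is chr5:30012864-30013113 (+ strand), the 250 bases before the start, and holds an AP-1 match at -249 and an NF-kB match at -44.
Il6: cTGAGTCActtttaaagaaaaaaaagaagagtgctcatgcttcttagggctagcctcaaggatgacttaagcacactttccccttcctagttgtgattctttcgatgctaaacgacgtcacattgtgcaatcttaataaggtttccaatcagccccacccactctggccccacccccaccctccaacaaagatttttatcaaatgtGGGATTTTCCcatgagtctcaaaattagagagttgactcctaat
The Lif stretch is chr11:4257318-4257556 (+ strand), the 239 bases that lie before the annotated gene, and holds an AP-1 match at -228 from the RefSeq start.
Lif: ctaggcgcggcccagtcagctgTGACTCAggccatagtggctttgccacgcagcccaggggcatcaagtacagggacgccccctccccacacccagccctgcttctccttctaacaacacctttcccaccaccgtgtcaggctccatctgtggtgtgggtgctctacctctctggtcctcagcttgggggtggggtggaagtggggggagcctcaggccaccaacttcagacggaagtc
The Socs3 stretch is chr11:117969502-117969530 (- strand), which begins 517 bases inside the GENCODE gene. It is the 29 bases around the 1 STAT match, at -154 from the RefSeq start.
Socs3: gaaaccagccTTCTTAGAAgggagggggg
Among 32851 mouse promoters, in windows of the same length, 6.75% held the AP-1 motif, 7.02% the STAT motif and 0.356% the NF-kB motif. RefSeq promoter entries were found for 8 of the 10 genes. A match is a description of letters, not a measured binding site.

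A total of 28163 barcodes were taken as cells: 4911 from WT quadriceps, 7516 from WT diaphragm, 8334 from mdx5cv quadriceps and 7402 from mdx5cv diaphragm, with medians of 2055 to 5328.5 UMIs. Pairs of libraries shared 5 to 17 barcode sequences. Cells were put into classes by detected marker genes, and a class is called FAP-like, macrophage-like and so on because it rests on transcripts alone. FAP-like cells numbered 966, 6326, 1595 and 3208 in the order WT quadriceps, WT diaphragm, then mdx5cv quadriceps, mdx5cv diaphragm, which is kept below. Endothelial-like cells numbered 2716, 76, 482 and 387, muscle stem cell-like cells 320, 117, 250 and 225, and macrophage-like cells 202, 144, 3700 and 1603. Levels are in CPM, the gene's UMIs per 1000000 UMIs of the class in that library, and 2 levels are called apart at 2-fold or more with at least 20 UMIs in the higher library.

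In FAP-like, endothelial-like, muscle stem cell-like and macrophage-like cells, the WT diaphragm carried more stress transcripts than the other libraries. The 30 stress genes followed are immediate-early genes such as Fos and Egr1 and heat-shock genes such as Hspa1a, which are known to rise when tissue is dissociated. In FAP-like cells they summed to 14098, 38375, 9115 and 13122 CPM, in endothelial-like cells to 22532, 45498, 14104 and 22194 CPM, and in macrophage-like cells to 25017, 45466, 13162 and 21447 CPM. In FAP-like cells 24 of the 30 genes were called higher in WT diaphragm than in WT quadriceps FAP-like cells, with 0 lower. In muscle stem cell-like cells both WT libraries were high, at 77230 and 84955 CPM, against 18847 and 22178 CPM in mdx5cv. Lymphoid cells of the diaphragm went another way, with 21816 CPM in WT and 31836 CPM in mdx5cv in B-like cells, 47558 and 63877 CPM in ILC2-like cells, and 34853 and 34691 CPM in T-like cells. These values stand beside every comparison below that uses a WT library.

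Osm, the gene of oncostatin M, was highest in myeloid cells. In macrophage-like cells it stood at 21.9 CPM (12.5-35.5), 59.3 CPM (42.3-80.7), 45.2 CPM (42.7-47.8) and 75.5 CPM (70.5-80.7) in the 4 libraries. Monocyte-like cells, which were numerous enough only in mdx5cv, held 126 CPM (113-141) in quadriceps and 152 CPM (134-173) in diaphragm. The 53 neutrophil-like cells of mdx5cv quadriceps held 798 CPM (627-1000), from 75 UMIs in 28 cells. In mdx5cv quadriceps the order was therefore neutrophil-like, monocyte-like and then macrophage-like, with intervals that did not overlap between neighbours. Dendritic-like cells were lower, at 9.40 CPM (5.89-14.2) in mdx5cv quadriceps and 16.6 CPM (9.99-25.9) in mdx5cv diaphragm. In T-like cells the level was 8.63 CPM to 12.2 CPM, from 3 to 9 UMIs a library.

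Macrophage-like Osm was 2.07-fold higher (1.27-3.63) in mdx5cv than in WT quadriceps and 2.71-fold higher in WT diaphragm than in WT quadriceps. The quadriceps genotype ratio was 1.93-fold without cells that held 2 or more markers of another lineage and 1.88-fold with a gate lead of 2 markers, both short of the threshold, and the WT muscle ratio was 1.94-fold with the mean of per-cell CPM. Within mdx5cv it climbed with the cells' stress share. From cells with under 1% of their UMIs on stress genes to cells with 4% or more, it went from 20.9 CPM to 165 CPM in quadriceps and from 23.1 CPM to 154 CPM in diaphragm. In macrophage-like cells below the class's median stress share it was 28.7 CPM (26.3-31.3) and 28.1 CPM (23.3-33.6) in the mdx5cv muscles, close to each other, whereas the 1.67-fold gap between these muscles was measured over all cells. The WT values below the median rest on 1 and 7 UMIs.

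In FAP-like cells Osm was near absent in WT, with 0 UMIs in quadriceps (up to 1.01 CPM) and 0.389 CPM (0.201-0.680) in diaphragm, and low in mdx5cv, with 7.28 CPM (5.85-8.96) in quadriceps and 5.08 CPM (4.14-6.16) in diaphragm. The ratio of mdx5cv to WT was 8.85 in quadriceps, with the 0 UMIs of WT set to 3, and 13 (7.15-26.1) in diaphragm. The 89 UMIs of mdx5cv quadriceps came from 42 cells. The free RNA estimated for these cells would hold 9.21 CPM of Osm in mdx5cv quadriceps and 3.41 CPM in mdx5cv diaphragm, against 0.353 CPM and 0.311 CPM in WT, so the quadriceps level lies below its free-RNA estimate. The 8 macrophage markers, all of them detected in each library, summed in the same cells to 35.1 CPM, 25.6 CPM, 632 CPM and 270 CPM, higher in mdx5cv like Osm itself. The part of such cells in the Osm level was not tested. Leiden clusters also include cells outside the gated class. The FAP-like cluster led by Lyz2, Cd74 and H2-Aa, which are genes of myeloid and antigen-presenting cells, held 210 Osm UMIs (33.5 CPM) in 505 cells. Only 67.5% of its cells were gated as FAP-like, so these UMIs are not a part of the class counts above. The FAP-like clusters led by Col6a5, by Sult1e1 and by Apod held 4, 1 and 2 UMIs. Endothelial-like Osm in mdx5cv diaphragm, 30.6 CPM (21.9-41.7) against 0 UMIs in WT diaphragm and 4.84 CPM (2.09-9.54) in mdx5cv quadriceps, had 39 of its 40 UMIs in 5 cells.

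**Figure D1:**
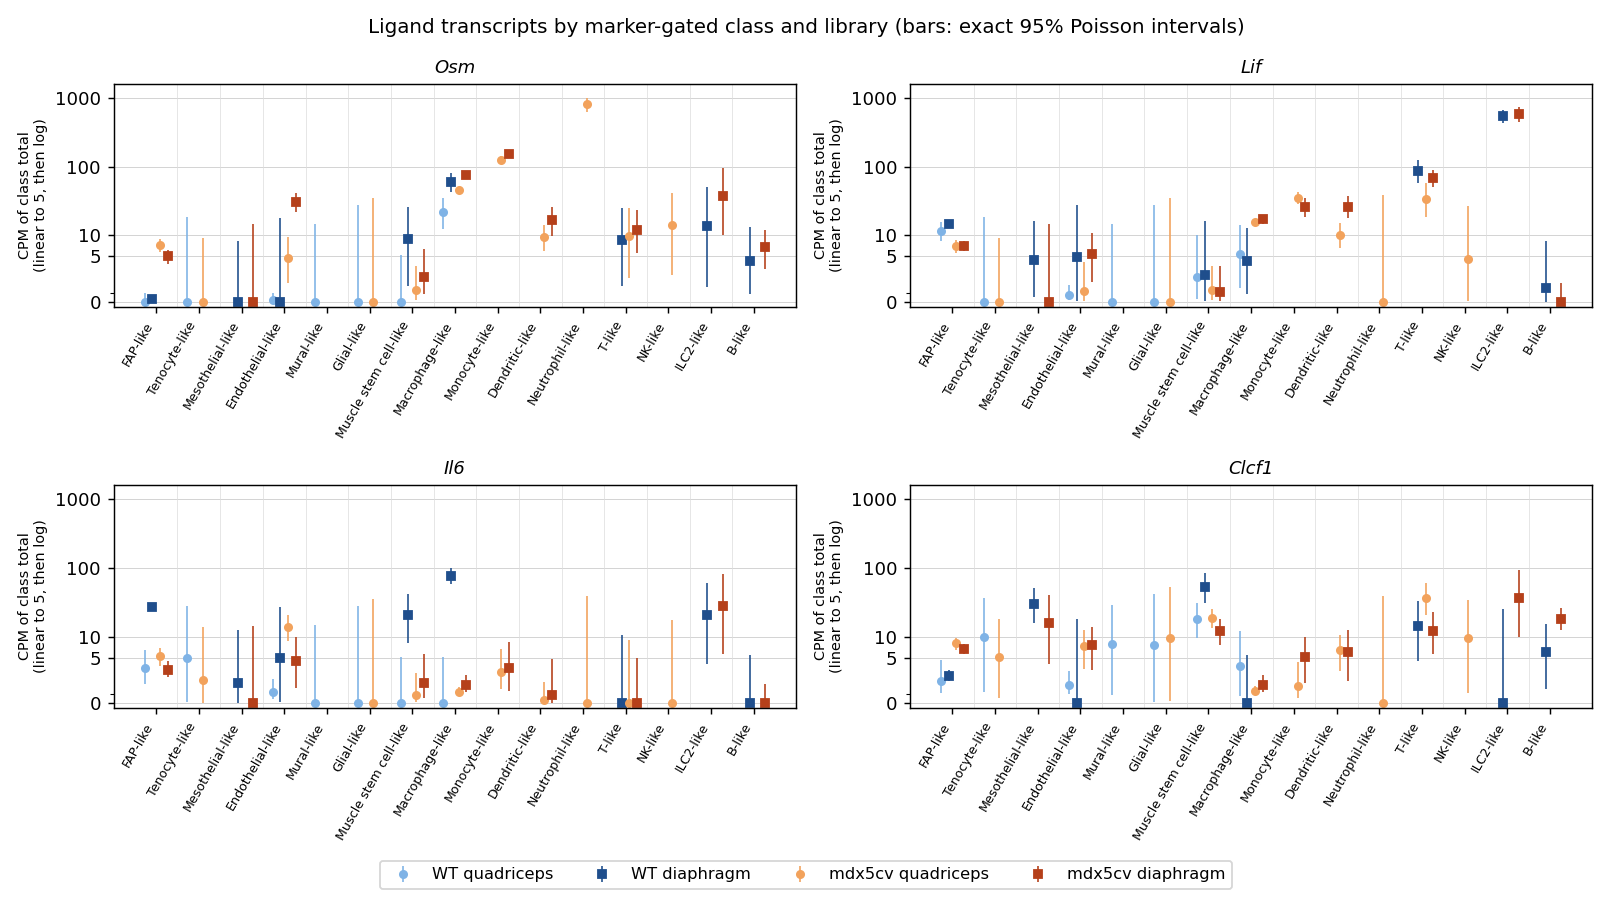
Level of the 4 ligand genes (y axis, CPM of the class total, linear to 5 and then logarithmic) in each marker-gated class (x axis) with 30 or more cells, for the 4 libraries. Points are class levels and bars are exact 95% Poisson intervals. Osm is highest in the neutrophil-like cells at 798 CPM, Lif in the ILC2-like cells at 539 and 571 CPM, and Il6 in the macrophage-like cells of WT diaphragm at 77.1 CPM.

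Lif had its highest level per class in lymphoid cells of the diaphragm, while most of its UMIs came from larger classes. FAP-like cells gave 72.4%, 62.6%, 11.6% and 22.0% of the Lif UMIs of the 4 libraries, and macrophage-like cells 6.90%, 0.412%, 56.4% and 29.97%. Cells gated as group 2 innate lymphoid cells (ILC2-like), tissue-resident makers of type 2 cytokines, held 539 CPM (426-672) in WT diaphragm and 571 CPM (438-732) in mdx5cv diaphragm, and were too few in the quadriceps libraries for a level. They gave 10.7% and 9.63% of the Lif UMIs of these libraries. The intervals of the 2 genotypes overlapped almost fully. The 78 UMIs of WT diaphragm were in 21 of 50 cells (42.0%, median 2593.5 UMIs a cell), whereas B-like cells of that library, which served as background, had a Lif UMI in 1 of 235 cells (0.426%, median 2524 UMIs). T-like cells followed, at 86.3 CPM (58.2-123) in WT diaphragm, 34.1 CPM (18.6-57.1) in mdx5cv quadriceps and 68.9 CPM (51.3-90.6) in mdx5cv diaphragm. The 308 cells of WT diaphragm that fitted no class held 148 CPM (125-173).

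FAP-like cells held Lif at a low level, 11.5 CPM (8.30-15.6), 14.8 CPM (13.5-16.2), 7.03 CPM (5.63-8.69) and 7.07 CPM (5.95-8.33), with both WT libraries above both mdx5cv libraries. The free RNA estimated for these cells would hold 0.353 CPM, 2.18 CPM, 3.92 CPM and 2.06 CPM of Lif. The 5 cells with the most Lif gave 21.4%, 6.14%, 38.4% and 26.8% of its UMIs. The mdx5cv-to-WT ratio in diaphragm was 0.478 (0.393-0.578). Below the median stress share the levels of the diaphragm were 11.3 CPM in WT and 5.91 CPM in mdx5cv, and the difference fell just short of 2-fold, as it did with a mitochondrial limit of 5%, at 0.571. A FAP-like cluster of 136 cells led by Ctla2a, Rgs2 and Csf2 held 82.3 CPM. It also carried ILC2 markers, whose 8 genes summed to 439 CPM there against 9.57 CPM to 42.7 CPM in the other 9 FAP-like clusters, and 34 of its cells had 3 or more of them. The 8 T cell markers summed to 400 CPM there against 0.195 CPM to 20.4 CPM in the other 9, and 29 cells had 3 or more. The part of ILC2 and T cells in its Lif level was not tested. Macrophage-like Lif went the other way: 5.46 CPM (1.49-14.0) and 4.45 CPM (0.917-12.99) in WT quadriceps and diaphragm, and 15.5 CPM (14.0-17.0) and 17.1 CPM (14.8-19.7) in mdx5cv. The mdx5cv level was 2.83-fold (1.10-10.4) and 3.84-fold (1.29-18.8) that of WT, with wide intervals because the WT libraries held 4 and 3 UMIs. Monocyte-like cells of mdx5cv held 35.5 CPM (28.6-43.5) in quadriceps and 26.1 CPM (18.7-35.4) in diaphragm.

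Il6 was high in 1 library. FAP-like cells held 3.84 CPM (2.10-6.44), 27.1 CPM (25.3-29.0), 5.32 CPM (4.10-6.78) and 3.68 CPM (2.89-4.62). WT diaphragm was 7.07-fold higher (4.19-13) than WT quadriceps, and mdx5cv diaphragm was at 0.136 (0.105-0.172) of WT diaphragm, while the quadriceps ratio was 1.39. Macrophage-like cells of WT diaphragm held 77.1 CPM (57.5-101) and those of WT quadriceps 0 UMIs (up to 5.04 CPM). The difference was 18.8-fold with 0 set to 3 UMIs. The mdx5cv macrophage-like cells held 1.26 CPM (0.873-1.76) and 2.03 CPM (1.29-3.05), or 0.0264 of WT (0.0154-0.0439) in diaphragm. The macrophage value rests on few cells: 36 of the 52 UMIs (69.2%) were in 5 of 144 cells. In the 17 of these cells below the median stress share it was 111 CPM (53.3-204), and in the other 127 it was 71.8 CPM (51.8-97.1). The 17 cells are fewer than the 30 required for a level elsewhere. With most UMIs in 5 cells, this split cannot show how Il6 goes with stress. The macrophage-like cluster led by Retnla, Slpi and Ear2, of which 65.1% of cells were gated as macrophage-like, held 93 Il6 UMIs (20.6 CPM). In muscle stem cell-like cells WT diaphragm was again the highest, at 20.5 CPM (8.24-42.2) from 7 UMIs, against 0 to 2.21 CPM elsewhere. Endothelial-like Il6 was the exception, with its highest level, 13.9 CPM (8.83-20.9), in mdx5cv quadriceps, 10.9-fold (4.54-30.2) that of WT quadriceps. Of those 23 UMIs, 13 were in 5 cells.

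Among FAP-like clusters, Il6 was 35.8 CPM (31.3-40.7) in the one led by Sult1e1, Penk and Gdf10, 36.7 CPM (32.5-41.3) in the one led by Stmn4, Has1 and Ackr3, and 30.7 CPM (26.0-35.8) in the one led by Krtdap, Sbsn and Igfbp5. It was 6.08 CPM in the one led by Sfrp4, Tnmd and Angptl1 and 1.56 CPM in the one led by Col6a5, Sfrp1 and Fbln7. The libraries filled these clusters unequally. WT diaphragm gave 1267 of 1480 cells of the first and 1250 of 1390 of the second, and mdx5cv diaphragm gave 1963 of 2196 cells of the last. Ratios over the whole FAP-like class therefore also compare different clusters.

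Clcf1 stood in muscle stem cell-like cells at 18.1 CPM (9.64-31.0), 52.7 CPM (31.2-83.3), 18.7 CPM (13.4-25.3) and 12.1 CPM (7.61-18.4), with WT diaphragm above both mdx5cv libraries. They were the highest class in both WT libraries, T-like cells in mdx5cv quadriceps at 36.5 CPM (20.4-60.2) and ILC2-like cells in mdx5cv diaphragm at 36.9 CPM (10.0-94.4, from 4 UMIs), each with an interval that overlapped with that of the next class. In FAP-like cells it was low, at 2.47 CPM (1.13-4.68) and 3.02 CPM (2.43-3.69) in WT and 8.01 CPM (6.51-9.77) and 6.67 CPM (5.59-7.90) in mdx5cv. The mdx5cv level was 3.25-fold (1.64-7.32) that of WT in quadriceps and 2.21-fold (1.68-2.91) in diaphragm. In cells below the median stress share it was 1.75 CPM and 3.22 CPM in WT and 8.18 CPM and 6.47 CPM in mdx5cv, so the difference was present there too. With the estimated free RNA subtracted, the diaphragm difference was 1.85-fold and no longer passed 2-fold. B-like cells of the diaphragm held 5.96 CPM (1.62-15.3) in WT and 18.4 CPM (12.6-25.9) in mdx5cv.

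The receptor chain of oncostatin M was found on the other side, in stromal and vessel cells. Osmr stood at 132 CPM (122-142), 177 CPM (124-246), 171 CPM (152-192) and 148 CPM (128-170) in endothelial-like cells and at 55.9 CPM (48.5-64.1), 75.4 CPM (72.4-78.5), 119 CPM (113-126) and 91.5 CPM (87.4-95.8) in FAP-like cells. In each library endothelial-like cells were above FAP-like cells, with intervals apart. Tenocyte-like cells held 34.9 CPM (14.0-71.9) in WT and 90.7 CPM (63.5-126) in mdx5cv quadriceps, and mural-like cells, the cells around vessels, held 79.2 CPM (48.4-122) in WT quadriceps. Macrophage-like cells had 0 to 2.52 CPM, and T-like, NK-like, ILC2-like and neutrophil-like cells had 0 UMIs wherever they could be measured. Neutrophil-like, monocyte-like and macrophage-like cells, where Osm was highest, held at most 4.24 CPM of Osmr.

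FAP-like Osmr was 2.14-fold higher (1.84-2.48) in mdx5cv than in WT quadriceps and 1.21-fold higher in diaphragm. Its levels below the median stress share were 56.0 CPM, 57.4 CPM, 119 CPM and 91.4 CPM, with both mdx5cv libraries above both WT libraries. On the log2 scale the genotype difference was smaller in diaphragm than in quadriceps by 0.82 over all cells (interval -1.04 to -0.59). Muscle stem cell-like Osmr differed between libraries in another way: 4.18 CPM (0.861-12.2), 93.7 CPM (64.1-132), 19.6 CPM (14.2-26.4) and 13.2 CPM (8.49-19.7). WT diaphragm was 22.4-fold (7.01-114) above WT quadriceps, which held 3 UMIs. Within mdx5cv quadriceps the level climbed from 5.04 CPM in cells with under 1% stress transcripts to 79.6 CPM in those with 4% or more, and within mdx5cv diaphragm from 3.48 CPM to 38.1 CPM. WT quadriceps cells with 4% or more held 5.54 CPM (1.14-16.2), below the mdx5cv cells of that bin. All 3 Osmr UMIs of that library lay there, too few to show how Osmr goes with stress within it.

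Lifr, the receptor chain of LIF, was shared by endothelial-like, FAP-like, mural-like, glial-like and macrophage-like cells. Endothelial-like cells held 171 CPM (160-182), 83.8 CPM (48.8-134), 121 CPM (105-139) and 75.0 CPM (60.9-91.4), with both quadriceps libraries above the diaphragm library of the same genotype. Macrophage-like cells held 104 CPM (81.8-130) and 81.5 CPM (61.4-106) in WT and 36.8 CPM (34.5-39.1) and 27.3 CPM (24.4-30.6) in mdx5cv, so the genotypes did not overlap. The mdx5cv level was 0.354 (0.280-0.453) of WT in quadriceps and 0.335 (0.251-0.455) in diaphragm. It was also lower in cells below the median stress share, at 33.7 CPM and 16.5 CPM against 110 CPM and 100 CPM. The macrophage-like cluster led by Lyve1, Ccl8 and Cd163, genes of resident macrophages, held 106 CPM (96.2-117), and the cluster led by Spp1, Fabp5 and Fabp4 held 4.64 CPM (3.36-6.25) and consisted of 739 and 414 cells of the mdx5cv muscles and 0 WT cells. Tenocyte-like Lifr was also lower in mdx5cv, with 27.7 CPM (13.8-49.6) against 130 CPM (84.7-190) in WT quadriceps.

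Il6ra, which encodes the chain that binds IL-6, had its highest levels in myeloid classes. FAP-like cells gave 35.7%, 83.6%, 5.98% and 15.5% of its UMIs in the 4 libraries. Macrophage-like cells gave 20.7%, 7.17%, 67.1% and 54.2%. Macrophage-like cells held 84.7 CPM (64.9-109), 101 CPM (78.2-128), 109 CPM (105-113) and 88.6 CPM (83.2-94.3), with none of the 4 comparisons past 2-fold. Monocyte-like cells held 143 CPM (128-158) and 87.9 CPM (73.8-104) in mdx5cv quadriceps and diaphragm. FAP-like cells held 14.2 CPM to 29.3 CPM, and the FAP-like cluster led by Krtdap, Sbsn and Igfbp5 held 64.6 CPM (57.8-72.0). Muscle stem cell-like cells had 0 to 8.65 CPM. Endothelial-like Il6ra was 4.25-fold (2.54-7.16) higher in mdx5cv quadriceps, at 22.4 CPM (15.8-30.9) against 5.28 CPM (3.53-7.58), where the 8 macrophage markers, all detected in both libraries, summed to 1052 CPM against 48.8 CPM. Without the cells that held 2 or more markers of another lineage the difference was 1.29-fold, and with cells thinned to 1000 UMIs it was 1.41-fold, both below the threshold.

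Il6st, the gene of the common chain gp130, was measured in nearly every class. FAP-like cells held 196 CPM (182-211), 129 CPM (125-133), 318 CPM (308-328) and 235 CPM (229-242), with each mdx5cv library above the WT library of its muscle, by 1.62-fold and 1.82-fold. Glial-like cells of the quadriceps held 311 CPM (223-422) in WT and 394 CPM (283-535) in mdx5cv. Muscle stem cell-like cells held 67.3 CPM to 76.5 CPM and macrophage-like cells 23.7 CPM to 31.6 CPM, with overlapping intervals among all 4 libraries. Il11ra1, the receptor gene for IL-11, was almost as even in FAP-like cells, at 308 CPM (291-327), 333 CPM (327-340), 288 CPM (278-297) and 295 CPM (288-303). In muscle stem cell-like cells it stood at 170 CPM (141-203) and 105 CPM (73.8-146) in WT and at 20.02 CPM (14.5-26.9) and 20.97 CPM (14.8-28.8) in mdx5cv, with no overlap between genotypes. The mdx5cv level was 0.118 (0.0815-0.168) of WT in quadriceps and 0.199 (0.123-0.323) in diaphragm. In cells with a stress share below the class median it was 210 CPM in WT and 13.6 CPM in mdx5cv quadriceps. The low-stress WT diaphragm cells numbered 12, too few for a value.

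**Figure D2:**
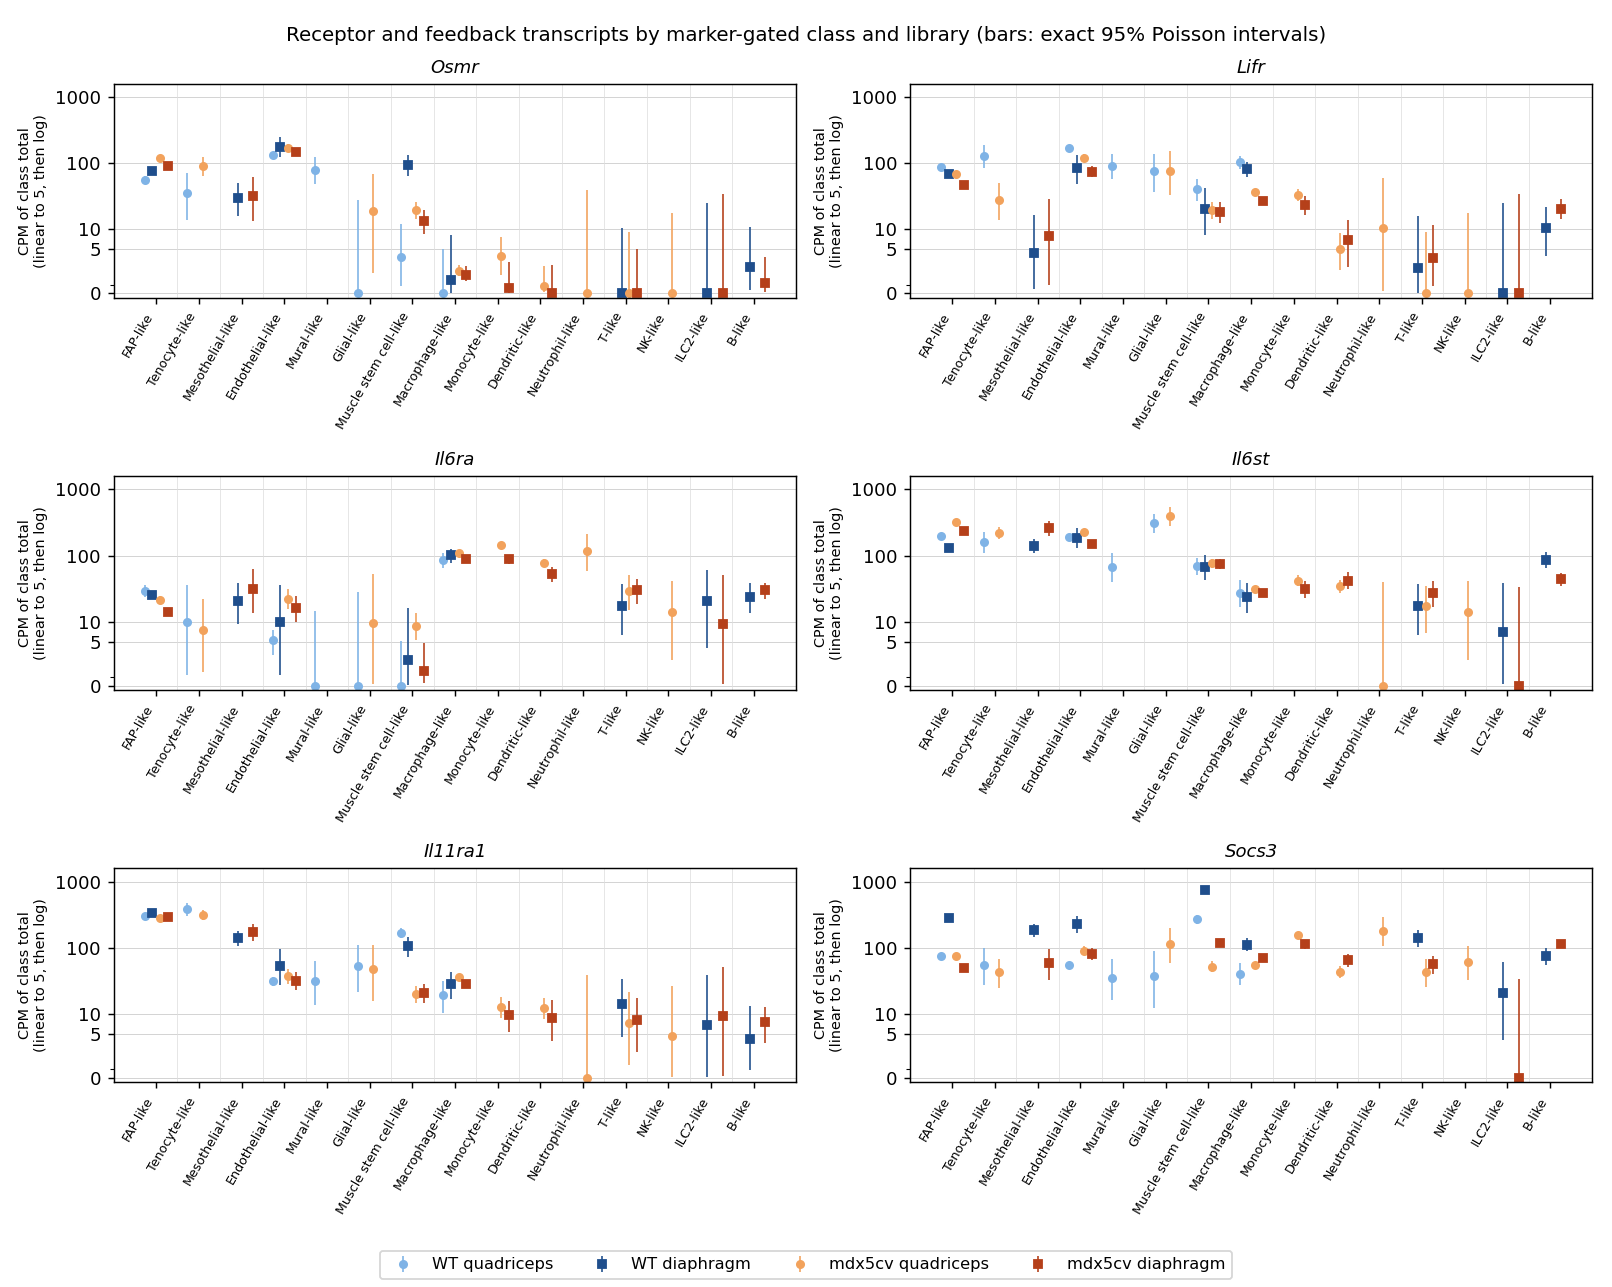
Level of the 5 receptor genes and Socs3 (y axis, CPM of the class total, linear to 5 and then logarithmic) in each marker-gated class (x axis) with 30 or more cells, for the 4 libraries. Points are class levels and bars are exact 95% Poisson intervals. Osmr is at 0 in T-like and ILC2-like cells, Il6ra is highest in the myeloid classes at up to 143 CPM, and Socs3 is highest in muscle stem cell-like cells of WT diaphragm at 749 CPM.

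Socs3, the feedback inhibitor that STAT3 induces, was highest in WT diaphragm in several classes. FAP-like cells held 75.4 CPM (66.7-84.8), 285 CPM (279-291), 75.5 CPM (70.7-80.5) and 49.2 CPM (46.2-52.4). Endothelial-like cells held 54.8 CPM (48.8-61.3), 232 CPM (170-308), 90.8 CPM (76.9-107) and 81.1 CPM (66.4-98.1). Muscle stem cell-like cells held 270 CPM (233-311), 749 CPM (660-847), 52.3 CPM (43.2-62.8) and 118 CPM (102-134). Macrophage-like cells held 41.0 CPM (27.7-58.5), 113 CPM (88.7-141), 54.9 CPM (52.1-57.8) and 71.3 CPM (66.5-76.4). In these 4 classes the WT diaphragm library was the highest, and its interval overlapped with that of no other library. The ratio of WT diaphragm to WT quadriceps was 3.79 (3.36-4.28), 4.23, 2.77 and 2.75 in the same order of classes. Mesothelial-like cells of the diaphragm, from its serous covering, had 186 CPM (148-231) in WT and 59.1 CPM (33.1-97.5) in mdx5cv.

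Socs3 went with the stress share of single cells in every library. From FAP-like cells with under 1% stress transcripts to those with 4% or more, it went from 16.1 CPM to 415 CPM in WT quadriceps, from 18.9 CPM to 452 CPM in WT diaphragm, from 49.7 CPM to 398 CPM in mdx5cv quadriceps and from 25.6 CPM to 201 CPM in mdx5cv diaphragm. Cells with 4% or more made up 40.8% of FAP-like cells in WT diaphragm, and 7.45%, 1.88% and 4.15% in WT quadriceps, mdx5cv quadriceps and mdx5cv diaphragm. Below the median stress share the levels were 29.8 CPM (23.8-36.8), 53.1 CPM (47.4-59.4), 60.01 CPM (55.5-64.7) and 34.9 CPM (32.1-37.9), so that WT diaphragm no longer stood apart from mdx5cv quadriceps. The WT muscle difference and the diaphragm genotype difference both fell below 2-fold there, while the quadriceps ratio of mdx5cv to WT, 1.002 over all FAP-like cells, passed it. Il6 in FAP-like cells also climbed with the stress share in WT diaphragm, from 1.62 CPM to 38.3 CPM. In WT quadriceps, mdx5cv quadriceps and mdx5cv diaphragm it went from 1.84, 2.71 and 2.29 CPM to 19.0, 25.4 and 20.1 CPM. Those highest bins held 3 to 13 Il6 UMIs. Among cells below the median share WT diaphragm was the highest, at 8.63 CPM (6.43-11.3) against 1.40 CPM, 4.49 CPM and 2.49 CPM. That split did not match stress between libraries. WT diaphragm had 454 cells under 1% and 992 from 1% to 2%, mdx5cv diaphragm 1669 and 903. Under 1% WT diaphragm was not higher, at 1.62 CPM (0.333-4.72). From 1% to 2% it was highest, at 14.3 CPM against 0, 9.94 and 3.20 CPM, as in both bins above. From the lowest to the highest stress bin Lif was 14.3, 8.41, 5.98 and 7.61 CPM in WT quadriceps and 14.5, 9.03, 14.3 and 17.3 CPM in WT diaphragm. In mdx5cv it was 4.24, 13.99, 12.3 and 8.47 CPM in quadriceps and 3.35, 10.3, 13.4 and 7.71 CPM in diaphragm, lowest in the bin under 1%. The highest bins of WT quadriceps and the mdx5cv muscles held 1 to 5 Lif UMIs.

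**Figure D3:**
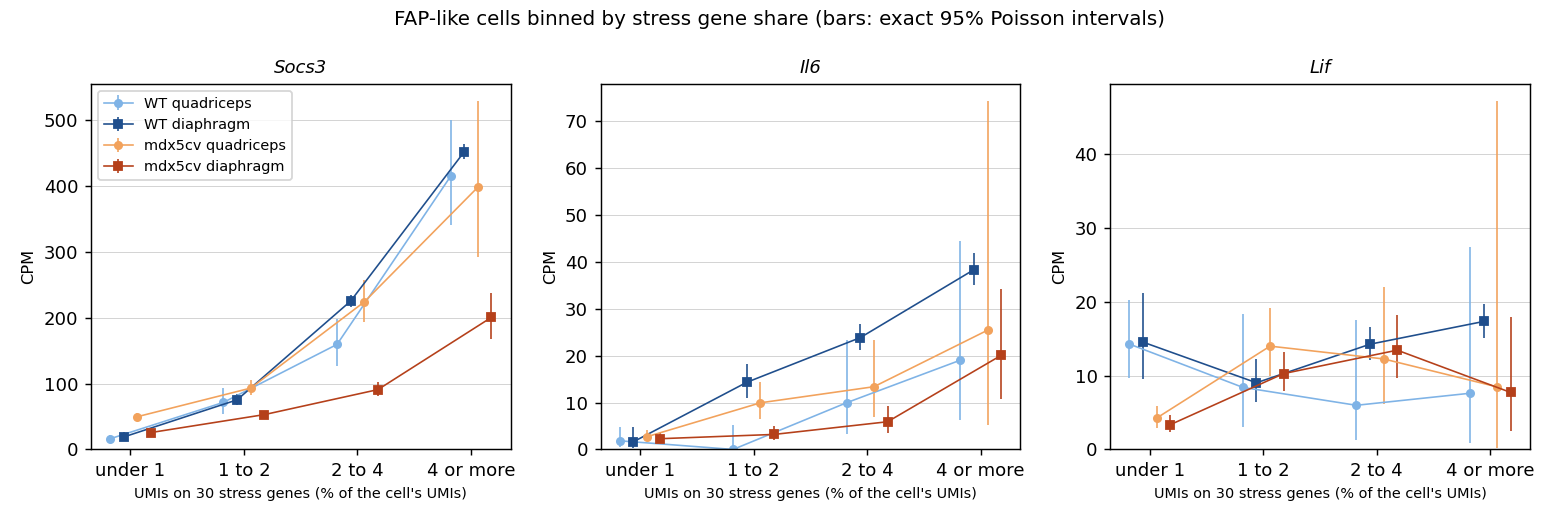
Level of Socs3, Il6 and Lif (y axes, CPM, each panel with its own linear scale) in FAP-like cells grouped by the share of their UMIs on 30 stress genes (x axis, percent), for the 4 libraries. Points are levels of all cells of a bin and bars are exact 95% Poisson intervals. Socs3 climbs in all 4 libraries, to 452 CPM in WT diaphragm and 201 CPM in mdx5cv diaphragm.

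Counted over the genes, FAP-like cells of the quadriceps had 3 of 10 members higher in mdx5cv (Osm, Osmr and Clcf1), where 14.7% of all genes tested were higher, and 0 lower, where 7.25% were. The median log2 ratio was 0.24 over the members and 0.12 over all genes. Osm is counted here although its mdx5cv quadriceps level, 7.28 CPM, lay below its free-RNA estimate of 9.21 CPM. Its WT side, at 0 UMIs, was set to 3. In the diaphragm, 2 of 10 were higher (Osm and Clcf1; 8.57% of all genes) and 3 lower (Il6, Lif and Socs3; 7.35%), with medians of -0.36 and 0.07. Between the WT muscles, 2 of the 9 with enough UMIs were higher in diaphragm (Il6 and Socs3; 6.88%) and 0 lower (5.47%), with medians of 0.29 and -0.07. Between the mdx5cv muscles 0 of 10 were apart, against 11.1% of all genes, with medians of -0.48 and -0.15. The 2 genotype comparisons share no library, but each WT library also serves in the WT muscle comparison, so that a high WT diaphragm level enters both the diaphragm genotype ratio and the WT muscle ratio.

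Muscle stem cell-like cells had the most members lower in mdx5cv. In quadriceps these were 3 of 6 (Lifr, Il11ra1 and Socs3; 6.61% of all genes), with 1 higher (Osmr; 27.6%), and in diaphragm 3 of 4 (Osmr, Il11ra1 and Socs3; 5.12%), with 0 higher (33.8%). The members' median log2 ratios were -0.50 over 6 genes and -2.50 over 4, against 0.49 and 0.67 over all genes. The class held 718176, 341687, 2197426 and 1812229 UMIs in the 4 libraries. With 20 UMIs asked of the higher library, a gene higher in WT needed a higher level to be compared. The genotype shares and medians over all genes can therefore lean toward mdx5cv. Between muscles, 2 of 5 were higher in WT diaphragm (Osmr and Socs3; 5.52%) and 0 lower (18.5%), with medians of -0.05 and -0.40, and 1 of 6 was apart in mdx5cv (Socs3, 2.25-fold higher in diaphragm; 9.16%), with medians of -0.08 and -0.18. The Lifr levels in this class were 40.4 CPM (27.0-58.0), 20.5 CPM (8.24-42.2), 19.6 CPM (14.2-26.4) and 18.2 CPM (12.5-25.6), a quadriceps ratio of 0.485. That call was lost with Leiden clusters as classes, a minimum of 2000 UMIs, thinned cells or the mean of per-cell CPM, where the ratio was 0.518 to 0.609. The quadriceps call of Socs3 was lost in cells below the median stress share, at a ratio of 0.558, and the diaphragm call of Il11ra1 with thinned cells, at 0.52. In this class 19 and 23 of the 30 stress genes were also lower in mdx5cv, in quadriceps and diaphragm. The genotypes filled the Leiden clusters named by stem cell markers unequally. The first held 446, 128, 37 and 40 cells of the 4 libraries, and the second 18, 2, 298 and 224. Stem cell-like cells with 2 or more markers of another lineage numbered 99, 51, 184 and 150. Genotype ratios over this class therefore also compare different clusters.

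Macrophage-like cells had 2 of 9 members higher in mdx5cv quadriceps (Osm and Lif; 15.8%) and 1 lower (Lifr; 2.90%), with medians of 0.36 and 0.26. In diaphragm 1 of 10 was higher (Lif; 19.0%) and 2 were lower (Il6 and Lifr; 3.25%), with medians of 0.02 and 0.38. Between the WT muscles 3 of 6 were higher in diaphragm (Osm, Il6 and Socs3; 4.36%) and 0 lower (6.67%), with medians of 0.84 and -0.16, and between the mdx5cv muscles 0 of 10 were apart (6.13%), with medians of -0.05 and -0.11. Socs3 between the WT muscles was 1.78-fold with thinned cells. Endothelial-like cells had 2 of 7 higher in mdx5cv quadriceps (Il6 and Il6ra; 9.16%) and 0 lower (5.44%), with medians of 0.38 and 0.06. In diaphragm 1 of 5 was higher (Osm; 19.2%) and 1 lower (Socs3; 2.82%), with medians of -0.26 and 0.38. Between the WT muscles 1 of 4 was higher in diaphragm (Socs3; 2.66%) and 1 lower (Lifr; 16.8%), with medians of 0.20 and -0.32. WT diaphragm had 76 endothelial-like cells, and the libraries filled the endothelial Leiden clusters unequally. The largest held 1912, 31, 299 and 227 cells of the 4 libraries, and a smaller cluster 13, 33, 9 and 18. Ratios with WT diaphragm in this class therefore also compare different clusters. Between the mdx5cv muscles 2 of 8 were apart, Osm higher and Il6 lower in diaphragm (6.71%), with medians of -0.35 and -0.12. Both of these calls were lost with Leiden clusters as classes and with a mitochondrial limit of 5%. The diaphragm genotype call of Osm was lost with a minimum of 2000 UMIs, where it was 1.92-fold against a floor of 3 UMIs. The call of Lifr between the WT muscles was lost with thinned cells and with a total free of stress, mitochondrial and ribosomal genes, at ratios of 0.569 and 0.529.

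**Figure D4:**
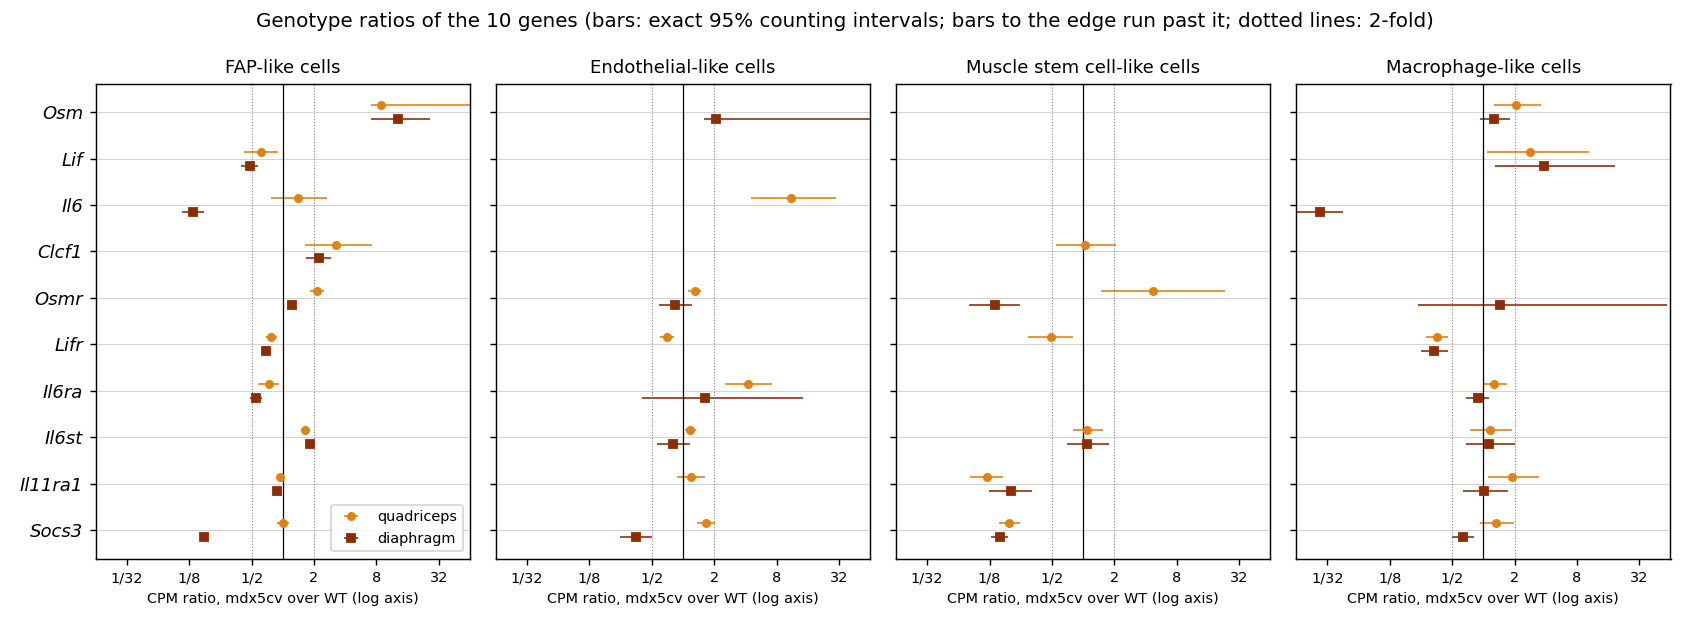
Ratio of CPM in mdx5cv to CPM in WT (x axis, logarithmic) for each of the 10 genes (y axis) with 20 or more UMIs in the higher library and a fold that can be given, in 4 classes, separately for quadriceps and diaphragm. Points are ratios, bars exact 95% counting intervals, and dotted lines mark 2-fold. In FAP-like cells Il6 and Socs3 lie at 0.136 and 0.172 in diaphragm but at 1.39 and 1.002 in quadriceps, and Il11ra1 in muscle stem cell-like cells lies below 0.2 in both muscles.

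The genotype difference itself differed between the muscles for some members. On the log2 scale the FAP-like difference between mdx5cv and WT was lower in diaphragm than in quadriceps by 2.54 for Socs3 (interval -2.75 to -2.32) and by 3.35 for Il6 (interval -4.25 to -2.45). In endothelial-like cells it was lower by 2.24 for Socs3 (interval -2.81 to -1.67). For Lifr in macrophage-like cells the 2 genotype differences were close, at -1.498 in quadriceps and -1.58 in diaphragm, and for Socs3 in muscle stem cell-like cells they were -2.37 and -2.67. The latter pair was close over all cells only, since the quadriceps difference was -0.84 in cells below the median stress share, short of 2-fold, and the diaphragm had too few such WT cells for a value. The intervals hold counting error only.

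The wider pathway was read from 58 further genes in 5 lists. In FAP-like cells, of 25 genes known as induced by STAT3 or oncostatin M, 24 had enough UMIs in each genotype comparison. In quadriceps 12 were higher and 3 lower in mdx5cv, where 14.7% and 7.25% of all genes were, with a median log2 ratio of 0.85 against 0.12 over all genes. In diaphragm 6 were higher and 6 lower, against 8.57% and 7.35% of all genes, with medians of 0.19 and 0.07. Timp1, which encodes a metalloproteinase inhibitor, was 11.8-fold (10.5-13.4) and 17.9-fold (17.2-18.6) higher in mdx5cv, at 925 CPM and 1552 CPM. Serpina3n, a serine protease inhibitor, was 4.05-fold and 2.77-fold higher, and Saa3, an acute-phase gene, 2.98-fold and 3.82-fold, at no more than 5.57 CPM. Vegfa, the vessel growth factor gene, was 3.21-fold and 3.49-fold lower. Of the 14 shedding and signalling genes 3 were higher in quadriceps (Jak2, Stat3 and Ptpn6) and 1 in diaphragm, Ptpn6, a phosphatase of blood cells, which was 20.4-fold and 11.8-fold higher at 28.0 CPM and 12.3 CPM. Like Osm, Ptpn6 moved with the macrophage markers given above, and the free RNA would hold 26.7 CPM and 10.1 CPM of it. Among 7 feedback relatives of Socs3, 3 were higher in quadriceps (Socs2, Socs5 and Cish) and 1 in diaphragm (Socs5). Among 7 other ligands Ebi3 was higher in both muscles, from 0 and 2 UMIs in WT. Its ratio was 4.28-fold in quadriceps with 0 set to 3 UMIs (lower limit 3.33) and 19.9-fold (4.99-173) in diaphragm. Its mdx5cv levels, 3.52 CPM and 1.29 CPM, were near the 2.99 CPM and 1.14 CPM estimated for free RNA. Among 5 other receptors 2 were lower in quadriceps (Cntfr and Sorl1) and 0 in diaphragm.

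Muscle stem cell-like cells differed in the same list in a mixed way. Of the STAT3 and oncostatin M list, 7 of 17 were higher and 3 lower in mdx5cv quadriceps, and 2 of 13 higher and 8 lower in mdx5cv diaphragm. Of all genes 27.6% were higher and 6.61% lower in quadriceps, and 33.8% and 5.12% in diaphragm. Cebpd and Cebpb, transcription factor genes that also answer to stress, were lower in both muscles, by 8.08-fold and 17.8-fold for Cebpd and by 7.47-fold and 11.1-fold for Cebpb. Timp1 was higher, 142-fold (25.3-5615) and 69.8-fold (12.4-2763), each against 1 UMI in WT. Ccnd1, a cell cycle gene, and Adam17, which sheds receptors such as that of IL-6 from the cell surface, were higher in both muscles, by 2.37-fold and 2.92-fold and by 2.34-fold and 5.09-fold.

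In macrophage-like cells the list had 7 of 23 higher in mdx5cv quadriceps, with 0 lower, and 2 of 18 higher in mdx5cv diaphragm, with 4 lower. Of all genes 15.8% were higher and 2.90% lower in quadriceps, and 19.0% and 3.25% in diaphragm. Sorl1 (2.91-fold and 9.04-fold), Ptpn6 (2.61-fold and 2.60-fold) and the survival gene Bcl2l1 (2.30-fold and 4.76-fold) were higher in both muscles. Timp1, at 31.8 CPM and 42.4 CPM in mdx5cv, lay below the 45.1 CPM and 63.9 CPM that the estimated free RNA would hold, so its count in these cells is not read as expression. The counts of higher genes above still include it in both muscles. In mdx5cv endothelial-like cells it had 7 of 21 higher in quadriceps, with 0 lower, and 4 of 20 higher in diaphragm, with 5 lower. Of all genes 9.16% were higher and 5.44% lower in quadriceps, and 19.2% and 2.82% in diaphragm. Timp1, which these counts also include as higher in both muscles, was again below its free-RNA estimate. It stood at 29.7 CPM and 52.8 CPM against 91.8 CPM and 108 CPM in mdx5cv. Il4ra, the receptor gene for interleukin-4 (4.19-fold and 3.77-fold) and Ccnd1 (2.10-fold and 2.02-fold) were higher in both. Between muscles, the iron-binding acute-phase gene Lcn2 was higher in diaphragm endothelial-like cells of both genotypes, 103-fold (64.9-168) in WT and 5.24-fold (2.89-10.2) in mdx5cv. The WT ratio of Lcn2 rests on 76 diaphragm cells, which filled other clusters than the quadriceps cells, as given above. Saa3 was higher in diaphragm macrophage-like cells, 45.2-fold in WT with 0 set to 3 UMIs (lower limit 36.2) and 23.1-fold (16.5-33.4) in mdx5cv. In FAP-like cells Ccnd1 and the interleukin-1 receptor gene Il1r1 were lower in diaphragm in both genotypes, by 4.35-fold and 3.20-fold and by 2.33-fold and 2.46-fold.

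The genes whose levels ran most like a member's were searched over 32 profiles of class and library, among 11383 genes. The measure was Pearson's r of log2(CPM + 10). Profiles of 1 library share depth and free RNA, so r is a description. Osm ran with Il1rn (r = 0.943), the gene of the interleukin-1 receptor antagonist, Ccr1 (0.940), a chemokine receptor gene, and Csf3r (0.925), a neutrophil marker of the class gate. Osmr ran with Foxc1 (0.934), Epha4 (0.918) and Kctd17 (0.915), Lifr with Tmem87b (0.862), Rgl1 (0.848) and Tnfsf12 (0.846), and Il6ra with Man2b1 (0.924), Gpx1 (0.906) and Cyba (0.904). For Lif the nearest were Proscos (0.859), Olfr1259 (0.845) and Rln3 (0.819). A profile needed 50 cells, so of the ILC2-like cells, where Lif was highest, only the 50 of WT diaphragm gave a profile, with 144770 UMIs. The high end of Lif therefore rests on 1 small profile. For Il6 no gene came closer than Wnt11 (0.631), followed by Tnfsf9 (0.622) and Serpinb2 (0.611).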

How the data were processed

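Single-cell RNA-seq counts of 4 libraries were used, 1 for each muscle and genotype (WT quadriceps and diaphragm, then mdx5cv quadriceps and diaphragm), with 18837891, 40226833, 62780685 and 49612759 UMIs. The authors deposited unfiltered matrices of raw UMI counts per gene and barcode. Per the submitters' processing notes Cell Ranger 5.0.0 and mm10 were used; per the file headers the matrices came from Cell Ranger 4. The gene models counted were not given in the sources used here.

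Barcodes with 1000 or more UMIs, 500 or more genes and at most 15% mitochondrial UMIs were kept. A cell took the class, of 16 with 8 markers each, with the most detected markers, if these were 3 or more and led by 1. This scoring was set after cell numbers per class had been seen. It placed 25854 cells and left 2309 without a class, and 94.2% of placed cells had the class of their Leiden cluster (41 clusters, 2000 variable genes, 30 components, 15 neighbours, resolution 1). No doublet caller was run. Leaving out cells with 2 or more markers of another lineage served instead.

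UMIs were summed per class and library (30 cells or more) and divided by the class total. Levels have exact Poisson intervals, shares exact Clopper-Pearson intervals and ratios exact conditional binomial intervals, all at 95%. Genotype by muscle differences have intervals from the summed variances of log counts. A side with 0 UMIs was set to 3 UMIs, and no fold is given where that floor exceeded the other side. Genes with 20 UMIs or more in the higher library were compared. A gene higher in the library with fewer UMIs of a class thus needed a higher level to be compared. Shares and medians over all genes can therefore lean toward the library with more UMIs, in every class. With 1 library a group there is no test. Free RNA was taken from barcodes of 10 to 100 UMIs and its share estimated from markers of other classes, which is an upper estimate. The comparison was tested on simulated data.

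The 10 genes and all lists were chosen with earlier results of these data known. The 10 genes are named whatever their values. A pathway gene is named if called the same way in both parallel comparisons of a class, at most 6 a class by the smaller fold, or as a member of a list's count. For 6 members the 3 most similar genes are named. Computation used scanpy 1.11.5, igraph 0.11.9, leidenalg 0.10.2, scikit-learn 1.9.0, scipy 1.17.1, numpy 2.4.6, pandas 2.3.3 and matplotlib 3.10.9 under Python 3.11.15. Results of some pathway genes are not reported here. The alternatives are given in the closing section.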

Additional observations from a re-analysis of the deposited data

Results flagged for a closer look

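Socs3 in endothelial-like cells was 1.66-fold higher in mdx5cv than in WT quadriceps but at 0.35 of WT in diaphragm, so that the genotype ratio had opposite directions in the muscles. WT diaphragm gave 76 endothelial-like cells and 47 Socs3 UMIs, and its stress transcripts summed to 45498 CPM. The difference was not tested, since each group is 1 library.

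Osmr in muscle stem cell-like cells was 4.68-fold higher in mdx5cv than in WT quadriceps but at 0.141 of WT in diaphragm. The WT libraries held 3 and 32 Osmr UMIs in 320 and 117 cells, and both had high stress sums, at 77230 and 84955 CPM. This difference was not tested either.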

How the results depend on the processing

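No paired analysis was possible because each group is 1 library. For the same reason no replicate could be left out. Of 116 member ratios, 37 were called 2-fold apart. Called in that direction at 2-fold again were 33 of 36 with a value with Leiden clusters as classes, 35 of 37 with a minimum of 2000 UMIs, 20 of 23 with a mitochondrial limit of 5%, 30 of 35 with cells thinned to 1000 UMIs, 34 of 37 with the mean of per-cell CPM, 32 of 34 without cells that held markers of another lineage, 16 of 20 in low-stress cells, 36 of 37 with a total free of stress, mitochondrial and ribosomal genes, 35 of 36 with free RNA subtracted, and 36 of 37 with a gate lead of 2, which was added after seeing the data. The remaining called ratios gave no value there (too few cells or no fold). One direction turned: Osm in endothelial-like cells between the mdx5cv muscles, with a log2 ratio of 2.66, was -0.42 with Leiden classes, and the cause was not tested.

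Counts of members apart moved as follows; the cause was not tested. With Leiden classes they went in endothelial-like cells from 2 to 1 (diaphragm genotype) and 2 to 0 (mdx5cv muscles), and in macrophage-like cells from 3 to 5 (diaphragm genotype) and 0 to 1 (mdx5cv muscles). The minimum of 2000 UMIs gave 1 in place of 2 for the endothelial-like diaphragm genotype, and the 5% limit 0 in place of 2 for the endothelial-like mdx5cv muscles. Thinning gave 2, not 0, for FAP-like and for macrophage-like mdx5cv muscles, 1, not 2, for the endothelial-like diaphragm genotype and WT muscles, and 4, not 2, for the stem cell-like WT muscles. The per-cell mean gave 0, not 1, for stem cell-like and 1, not 0, for macrophage-like mdx5cv muscles. Without foreign-marker cells the mdx5cv muscles had 1, 1, 3 and 2 in FAP-like, endothelial-like, stem cell-like and macrophage-like cells (0, 2, 1 and 0 before), and each endothelial-like genotype comparison had 1 (2 before). In low-stress cells the FAP-like counts were 5 (quadriceps genotype, 3 before), 3 (diaphragm genotype, 5 before) and 1 (WT muscles, 2 before), the stem cell-like quadriceps genotype 2 (4 before) and the macrophage-like mdx5cv muscles 2 (0 before). The reduced total gave 1 for the endothelial-like WT muscles. Subtracting free RNA gave 1 for FAP-like and macrophage-like mdx5cv muscles, and the lead of 2 gave 1 for the latter.

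Pathway genes in FAP-like cells of the diaphragm called at 1.5-fold were 19 higher (9 at 2-fold) and 10 lower (6 at 2-fold). With Spearman's rho, 0 of the 3 most similar genes were shared for Osm, Lif and Il6, and 1 for Osmr and Lifr. Depth limits Lif, Clcf1 and Osm in WT muscle stem cell-like and macrophage-like cells, where several levels rest on under 5 UMIs.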

Other observations

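In cells of no class, Osm stood at 38.4 CPM (33.7-43.6) in mdx5cv quadriceps and 66.5 CPM (58.5-75.2) in mdx5cv diaphragm, and Il6ra at 58.5 CPM (45.7-73.6), 40.7 CPM (29.5-54.8), 87.3 CPM (80.03-95.004) and 66.5 CPM (58.5-75.2) in the 4 libraries. Lif in these cells was 148 CPM in WT diaphragm against 16.02 CPM (13.003-19.5) in mdx5cv quadriceps and 30.3 CPM (25.05-36.4) in mdx5cv diaphragm.

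FAP-like clusters differed in their receptor genes. Lifr was 159 CPM (149-170) in the cluster led by Hsd11b1, Ces1d and Ccl11 and 123 CPM (112-134) in the one led by Apod, Cfd and Cxcl14, but 24.6 CPM (20.5-29.3) in the one led by Krtdap and Sbsn and 19.6 CPM (16.7-22.9) in the one led by Sfrp4, Tnmd and Angptl1. Osmr ran from 29.2 CPM (25.6-33.1) in the Sfrp4 cluster to 137 CPM (126-148) in the Apod cluster, and Il11ra1 from 154 CPM (143-165) in the Krtdap cluster to 473 CPM (456-490) in the Sult1e1 cluster. These genes took part in the clustering, so the values are descriptions.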
